A study of Homo sapiens with 12 samples.

Results

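TRiC, also called CCT, is the cytosolic chaperonin of eukaryotic cells. The data describe the messenger RNA of its 8 subunit genes, TCP1, CCT2, CCT3, CCT4, CCT5, CCT6A, CCT7 and CCT8, in 12 RNA-sequencing libraries of hTERT-RPE1 cells. Each symbol had 1 row among the 53361 gene rows of the deposited table, and all 8 were among the 30712 rows kept for testing, those that reached 1 FPKM in 3 or more libraries. FPKM counts fragments relative to transcript length and sequencing depth. It is not adjusted for GC content, so levels of different subunits are set side by side only with that limit. hTERT-RPE1 is an established human cell line of retinal pigment epithelial origin that carries the telomerase gene hTERT.

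The libraries fall into 4 groups of 3. One group was exposed to 1 µM MG132, a proteasome inhibitor, for 24 h. Another was exposed for 24 h to 0.5 µM reversine, which inhibits the mitotic kinase Mps1 and causes chromosome missegregation, and was washed and collected 48 h later. The remaining treated group was exposed for 6 h to 0.1 µM bafilomycin A1 (BafA1), which blocks the proton pump of lysosomes. Control cells were untreated. No vehicle or culture time is named for the controls, and the treatments differ in duration, so comparisons between treatments also compare different times. The labels do not mention separate cultures. The p-values therefore rest on the spread among libraries, which may be technical.

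The chaperonin is a barrel of stacked rings, each built from 8 different but related subunits, and newly made proteins fold in its cavity in cycles of ATP binding and hydrolysis. Actin and tubulin are its classical clients, together with many proteins that carry WD40 propellers, such as the mitotic activator CDC20. Every ring needs 1 copy of each subunit. In yeast, TCP1, CCT2, CCT4 and CCT5 form the side of the ring that binds ATP more tightly, and CCT3, CCT6, CCT7 and CCT8 form the other side. Prefoldin hands unfolded actin and tubulin to the chaperonin, and heat shock factor HSF1 controls many cytosolic chaperone genes.

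In untreated cells the levels of the 8 subunits differed widely. CCT3 was highest with 497 ± 21.8 FPKM (SD, n = 3), followed by CCT7 with 426 ± 17.6, CCT5 with 383 ± 9.61, TCP1 with 373 ± 33.0, CCT6A with 272 ± 19.9, CCT2 with 208 ± 15.2, CCT4 with 166 ± 11.0 and CCT8 with 82.7 ± 9.07. Neighbours in that order did not overlap between libraries, except CCT5 and TCP1. CCT3, CCT7, CCT5 and TCP1 also have the highest transcript GC content of the 8, at 45.3% to 50.9%. Whether GC content contributes to the order was not tested. The sum of the 8 genes was 2522 ± 96.9 FPKM after MG132, 1616 ± 159 after reversine, 1809 ± 64.5 after BafA1 and 2407 ± 69.3 in controls. Summed chaperonin message was lower in all 6 reversine and BafA1 libraries, at 1437 to 1874 FPKM, than in the controls, at 2342 to 2480. In bulk RNA, fewer cells that express a gene and less RNA per cell cannot be told apart.

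Libraries within a group were not alike. Over the rows of at least 50 FPKM, values fell with transcript GC content in MG132 2, MG132 3, reversine 1 and BafA1 3, by 0.453, 0.497, 0.370 and 0.165 log2 units per 10 percentage points, relative to the 12-library mean of each row. The slope was 0.0436 in MG132 1 and between 0.0771 and 0.314 in the other 7 libraries. The GC content of the subunit transcripts runs from 40.2% (CCT6A) to 50.9% (CCT7). These 4 are called the GC-tilted libraries, and results are given with and without them. Of 12 retinal pigment epithelium markers, the visual cycle enzyme RPE65 was at 0.04 to 0.06 FPKM, TYR at 0.38 to 0.62 and DCT at 0.36 to 0.58, while OTX2 (10.1 to 17.3 FPKM) and the keratin gene KRT18 (183 to 630 FPKM) were present. KRT18 and KRT8 fell after MG132, to 200 ± 16.8 and 345 ± 119 FPKM, against 442 ± 26.6 and 819 ± 99.6 FPKM in controls. Of 13 markers of blood, endothelial, neuronal and other epithelial cells 12 passed the filter, of which the macrophage marker CD68 had 59.4 to 133 FPKM and SNAP25 fell after MG132 (1.57 ± 0.172 FPKM, against 3.52 ± 0.517 FPKM in controls); their part in the results was not tested.

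**Figure D1:**
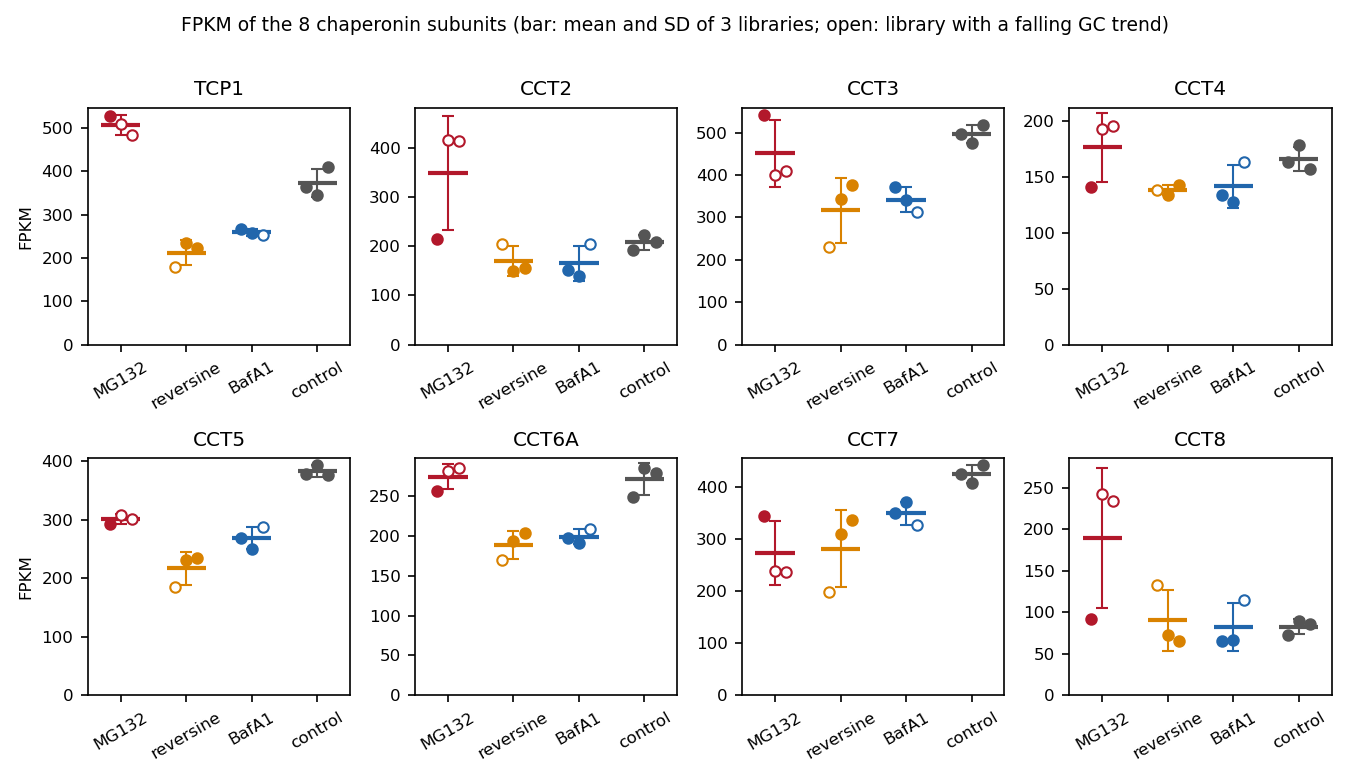
FPKM of each subunit (vertical axes) in MG132, reversine, BafA1 and control libraries; points are libraries, bars the mean and SD of 3, and open points the 4 GC-tilted libraries. TCP1 separates the 4 groups, with 483 to 527 FPKM after MG132 and 345 to 409 FPKM in controls, whereas CCT2 and CCT8 split within the MG132 group.

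After proteasome inhibition the log2 differences of the 8 subunits lay on both sides of 0, with 5 above and 3 below. TCP1 rose and CCT5 fell, and the other 6 did not pass the test. TCP1, the alpha subunit that gave the complex its name, measured 527, 509 and 483 FPKM in the MG132 libraries, against 364, 345 and 409 FPKM in controls. All MG132 libraries lay above all controls, a log2 difference of 0.44 ± 0.11 (SE; limma adjusted p = 0.0240). CCT5, the epsilon subunit, measured 292, 309 and 302 FPKM after MG132, against 378, 394 and 377 FPKM in controls. The MG132 libraries lay below all controls, with a log2 difference of −0.35 ± 0.10 (limma adjusted p = 0.0468). One subunit of 8 was thus called higher and 1 lower, beside 7.14% and 7.67% of all rows tested. In a list of 8 genes, 1 call in each direction is near those shares. Without the 4 GC-tilted libraries, which leaves MG132 1 alone in its group and assumed to vary like the others, CCT5 alone was called, with a log2 difference of −0.39 (limma adjusted p = 0.0277). TCP1 was then 0.50 higher with a limma adjusted p of 0.0556, and under median-ratio scaling of the libraries it was 0.15 higher with a limma adjusted p of 0.477.

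CCT8, CCT2 and CCT7 had larger differences than TCP1 but a wide spread after MG132. CCT8, the theta subunit, whose forced expression raises assembled chaperonin in human stem cells, measured 92.5, 243 and 235 FPKM after MG132, against 72.5, 89.8 and 85.8 FPKM in controls. MG132 1 lay just above the highest control and the other MG132 libraries were far higher, for a log2 difference of 1.07 ± 0.41 (limma adjusted p = 0.0997). CCT2, the beta subunit, which has also been described as a receptor for autophagy of aggregates, measured 215, 417 and 414 FPKM after MG132, against 192, 223 and 209 FPKM in controls. Its MG132 1 value lay within the control range, and the log2 difference was 0.68 ± 0.26 (limma adjusted p = 0.0997). CCT7, the eta subunit, measured 345, 240 and 238 FPKM after MG132, against 427, 408 and 443 FPKM in controls. All 3 MG132 libraries were below the controls, by −0.66 ± 0.21 on the log2 scale (limma adjusted p = 0.0637). CCT7 was called lower under median-ratio scaling (limma adjusted p = 0.0432) and after correction for GC content and length over the tested rows (0.0278), and in 4 of 17 alternatives in all; TCP1 was not called in those settings, so 2 subunits were lower and 0 higher in each, beside 9.63% and 11.6% of rows called lower.

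The remaining subunits stayed closer to the controls after MG132. CCT3, the gamma subunit, had 543, 401 and 409 FPKM after MG132 and 496, 475 and 519 FPKM in controls, with MG132 1 above and the other MG132 libraries below the controls. CCT4, the delta subunit, had 141, 193 and 195 FPKM after MG132 and 163, 178 and 157 FPKM in controls. CCT6A, the zeta subunit, had 257, 282 and 286 FPKM after MG132 and 249, 286 and 280 FPKM in controls. The 95% intervals of the log2 difference were −0.57 to 0.26 for CCT3, −0.25 to 0.40 for CCT4 and −0.20 to 0.23 for CCT6A. Groups did not overlap for 2 subunits in the higher direction and 2 in the lower direction, against 20.3% and 13.5% of all rows. When MG132 1 was left out, 5 subunits were called, with TCP1, CCT2 and CCT8 higher and CCT5 and CCT7 lower, beside 30% of all rows called higher and 12.5% lower in that fit. Without control 1, control 2, MG132 2 or MG132 3 no subunit was called. The shares of all rows called in those fits are not given, so these counts cannot be set against the fit without MG132 1.

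**Figure D2:**
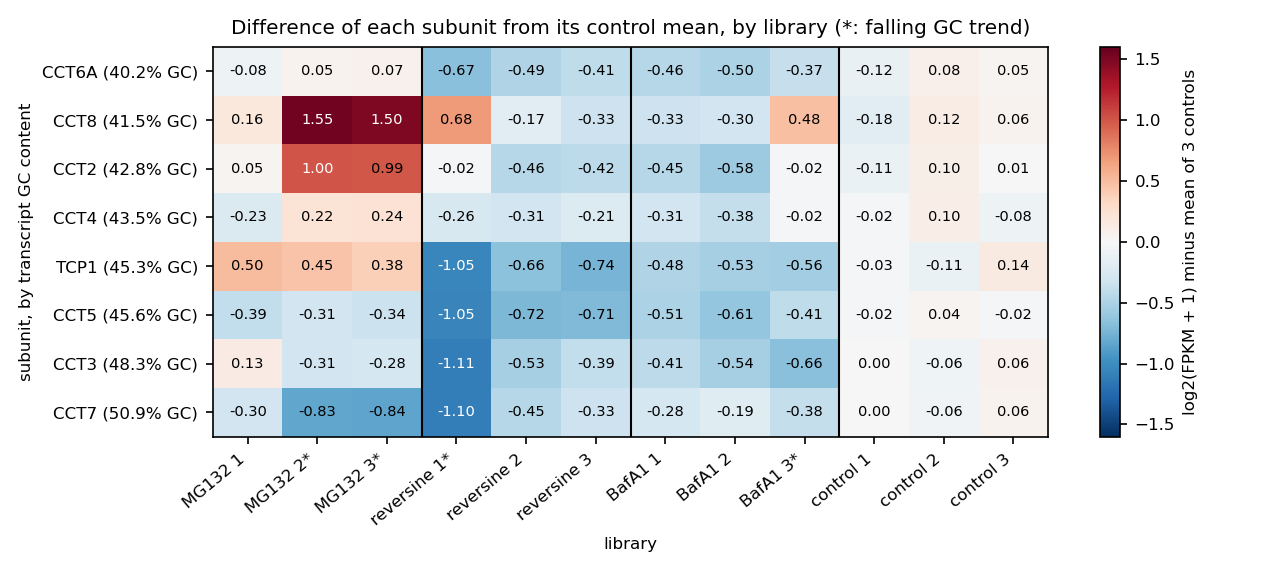
Log2 difference of each subunit from its control mean (colour and printed value) in each library, with subunits ordered by transcript GC content; asterisks mark the GC-tilted libraries. TCP1 is above 0 in all MG132 libraries and CCT5 below 0 in all treated libraries, while CCT8 reaches 1.55 and 1.50 in MG132 2 and MG132 3 and 0.16 in MG132 1.

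Promoter sequence was examined because HSF1 and its relatives bind repeats of the unit GAA in alternating orientation, and because other chaperone genes rose after MG132 in these cells. RefSeq windows of GRCh38.p14, from 250 bases before to 50 bases after a transcription start, were matched by symbol for 7 of the 8 subunits, in 9 windows. Adjoining pairs of the unit were searched as GAANNTTC and TTCNNGAA, each of which reads the same on both strands. Either pair occurred in 3 of the 9 windows, 1 each of TCP1, CCT2 and CCT4, and in 13.5% of all 35116 windows. The heat shock list described below had such a pair in 12 of 26 windows. The stretches before the start of TCP1 (chr6:159789603-159789852, minus strand) and of the CCT2 window that held a match (chr12:69585639-69585888, plus strand) are shown because these genes had the highest MG132 ratios to BafA1 among called subunits; capitals mark the pair.
TCP1: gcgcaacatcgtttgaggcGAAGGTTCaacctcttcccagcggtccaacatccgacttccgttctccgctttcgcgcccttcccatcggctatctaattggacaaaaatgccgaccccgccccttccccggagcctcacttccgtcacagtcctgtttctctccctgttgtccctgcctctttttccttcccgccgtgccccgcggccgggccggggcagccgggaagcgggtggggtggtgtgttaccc
CCT2: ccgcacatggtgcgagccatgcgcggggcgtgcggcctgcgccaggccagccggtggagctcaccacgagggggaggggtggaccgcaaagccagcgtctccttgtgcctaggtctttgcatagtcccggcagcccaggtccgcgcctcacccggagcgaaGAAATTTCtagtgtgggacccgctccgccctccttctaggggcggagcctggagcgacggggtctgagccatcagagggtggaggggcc
Counted from the transcription start of its window, the pair begins at position −231 in TCP1, −89 in CCT2 and 38 in CCT4. CCT2 and CCT4 each have another window, with another start, that held no match. The windows of CCT3, CCT5, CCT7 and CCT8 held neither pair of letters. CCT8 was not called, but its MG132 ratio to BafA1 was 2.31, above those of CCT2 (2.11) and TCP1 (1.96). CCT2 was called against BafA1 but not against control. In the only CCT5 window, the bases before the start hold an ATG that could open coding sequence. That window may lie inside the gene, and bases before an earlier CCT5 start were not searched. A match describes the letters only and was not tested as a binding site.

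In cells collected 48 h after reversine was washed out, TCP1, CCT5 and CCT6A fell. Of the 8 log2 differences 7 were below 0, and CCT8 was the exception. TCP1 measured 179, 235 and 222 FPKM after reversine, against 364, 345 and 409 FPKM in controls, a log2 difference of −0.82 ± 0.11 (limma adjusted p = 0.0052). CCT5 measured 184, 232 and 234 FPKM after reversine, against 378, 394 and 377 FPKM in controls, a log2 difference of −0.83 ± 0.10 (limma adjusted p = 0.00335). Both genes were at 57% of their control mean, with every reversine library below every control. CCT6A measured 170, 194 and 204 FPKM after reversine, against 249, 286 and 280 FPKM in controls, a log2 difference of −0.52 ± 0.09 (limma adjusted p = 0.0236).

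The 3 of 8 subunits called lower after reversine stand beside 1.29% of all rows called lower. For 6 of 8 all reversine libraries lay below all controls, beside 10.1% of all rows. CCT3 measured 230, 343 and 377 FPKM after reversine and 496, 475 and 519 FPKM in controls, a difference of −0.68 ± 0.19 that missed the threshold (limma adjusted p = 0.123). CCT7 measured 198, 311 and 338 FPKM after reversine and 427, 408 and 443 FPKM in controls, a difference of −0.63 ± 0.21 (limma adjusted p = 0.216). For both genes reversine 1 was the lowest library. CCT4 had 138, 134 and 143 FPKM after reversine, below the 163, 178 and 157 FPKM of controls, and its log2 difference was −0.26 ± 0.14 (limma adjusted p = 0.469).

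CCT2 and CCT8 overlapped between reversine and control. CCT2 had 205, 151 and 156 FPKM after reversine and 192, 223 and 209 FPKM in controls. CCT8 had 133, 73.0 and 65.2 FPKM after reversine and 72.5, 89.8 and 85.8 FPKM in controls, so that reversine 1 was the highest and reversine 3 the lowest of these 6 values. The median log2 difference of the 8 subunits was −0.58 after reversine, while the median of all rows was 0.09. Without the 4 GC-tilted libraries, TCP1 (−0.70, limma adjusted p = 0.0320), CCT5 (−0.71, 0.0163) and CCT3 (−0.46, 0.0467) were called lower and CCT6A was not (limma adjusted p = 0.0661). CCT8 was then −0.25. In a fit of reversine and control alone no subunit was called, although the log2 differences were the same as in the fit of 4 groups. The limma adjusted p was 0.156 for TCP1, 0.119 for CCT5 and 0.244 for CCT6A. The share of all rows called in that fit is not given, so its count of 0 has no background.

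**Figure D3:**
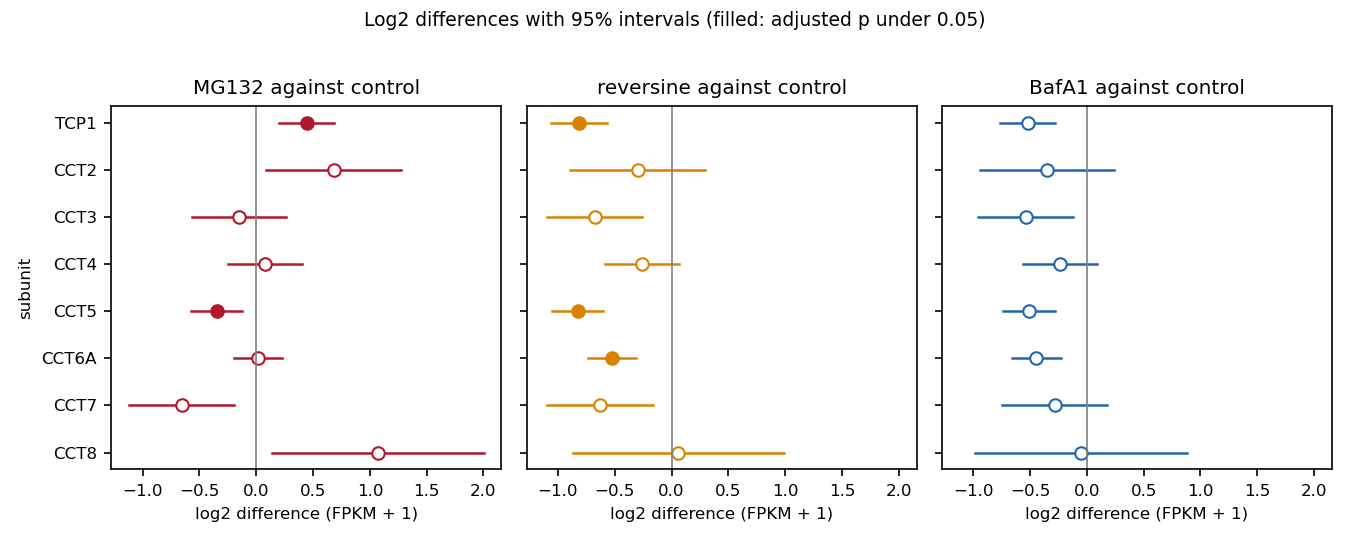
Log2 difference of each subunit from control, with 95% intervals (horizontal axes), after MG132, reversine and BafA1; filled points have a limma adjusted p under 0.05. Estimates lie on both sides of 0 after MG132, and below 0 for 7 subunits after reversine and for all 8 after BafA1.

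After BafA1 the estimated log2 difference was below 0 for all 8 subunits, from −0.54 to −0.05, but none passed the test after adjustment, with or without the GC-tilted libraries. TCP1 measured 267, 257 and 252 FPKM after BafA1, against 364, 345 and 409 FPKM in controls (−0.52 ± 0.11, limma adjusted p = 0.144). CCT5 measured 269, 250 and 288 FPKM after BafA1, against 378, 394 and 377 FPKM in controls (−0.51 ± 0.10, limma adjusted p = 0.117). CCT6A measured 198, 191 and 209 FPKM after BafA1, against 249, 286 and 280 FPKM in controls (−0.44 ± 0.09, limma adjusted p = 0.162). In these 3 genes the BafA1 libraries lay close together and below all controls. CCT3 was below all controls too, with 372, 342 and 313 FPKM after BafA1 against 496, 475 and 519 FPKM in controls (−0.54 ± 0.19, limma adjusted p = 0.478), as was CCT7 with 350, 372 and 328 FPKM against 427, 408 and 443 FPKM (−0.28 ± 0.21, limma adjusted p = 0.733).

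CCT2 had 151, 139 and 206 FPKM after BafA1 and 192, 223 and 209 FPKM in controls, CCT4 had 133, 127 and 164 FPKM after BafA1 and 163, 178 and 157 FPKM in controls, and CCT8 had 65.2, 66.7 and 115 FPKM after BafA1 and 72.5, 89.8 and 85.8 FPKM in controls. In each of these 3 genes BafA1 3, a GC-tilted library, was the highest BafA1 library, and its CCT8 value lay above every control. The CCT8 means were 82.3 FPKM after BafA1 and 82.7 FPKM in controls, and the log2 difference was 0.089 without BafA1 1. Few genes of any kind passed in this comparison, 0.264% of all rows. At an unadjusted p under 0.05 there were 4 subunits and 7.12% of all rows. BafA1 and control libraries did not overlap for 5 subunits, all lower, against 7.42% of all rows lower. The median log2 difference was −0.40 for the subunits and 0.14 for all rows.

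The reversine and MG132 differences share their controls with the BafA1 difference, so the treatments were also set against each other. Relative to reversine, MG132 libraries had higher TCP1 (log2 difference 1.26 ± 0.11, limma adjusted p = 0.000214), CCT6A (0.54 ± 0.09, limma adjusted p = 0.00981) and CCT5 (0.48 ± 0.10, limma adjusted p = 0.0218). The TCP1 mean was 506 ± 22.2 FPKM after MG132 and 212 ± 29.3 FPKM after reversine, a ratio of 2.39. These 3 calls of 8 stand beside 2.99% of all rows called higher, and 5 subunits had no overlap in that direction, beside 14.7%. CCT7 was alike in level, with 274 ± 61.6 FPKM after MG132 and 282 ± 74.2 FPKM after reversine, and a 95% interval of −0.49 to 0.44 on the log2 scale.

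Relative to BafA1, MG132 libraries had higher TCP1 (0.96 ± 0.11, limma adjusted p = 0.00056), CCT6A (0.46 ± 0.09, limma adjusted p = 0.0135) and CCT2 (1.03 ± 0.26, limma adjusted p = 0.0356). CCT2 averaged 349 ± 116 FPKM after MG132 and 165 ± 35.4 FPKM after BafA1. The background of rows called higher was 4.49%, and 5 subunits did not overlap in that direction, beside 10.5%. Without the 4 GC-tilted libraries MG132 1 stands alone in its group, with no spread of its own. The median log2 difference of the 8 subunits was then 0.39 against reversine and 0.44 against BafA1. MG132 1 exceeded every reversine and BafA1 library in TCP1, CCT2, CCT3, CCT5 and CCT6A, but not in CCT4, CCT7 and CCT8. Reversine and BafA1 were not told apart by any subunit in limma, beside 1.23% of all rows called; 2 subunits, TCP1 and CCT5, had an unadjusted p under 0.05, beside 7.47% of all rows. TCP1 had 212 ± 29.3 FPKM after reversine and 259 ± 7.37 FPKM after BafA1, a log2 difference of −0.29 with a 95% interval of −0.54 to −0.05. In a single test over the 4 groups (moderated F), TCP1, CCT5 and CCT6A passed (limma adjusted p = 0.00034, 0.00334 and 0.00696), beside 11.2% of all rows. All 8 passed when MG132 1 was left out, but so did 41.9% of all rows.

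Relative to one another, the subunits varied less in proportion among the controls than in some treated libraries. The share of a subunit in the summed FPKM does not depend on scaling between libraries. TCP1 made up 20.1 ± 1.55% of the sum after MG132, 13.1 ± 0.844% after reversine, 14.3 ± 0.753% after BafA1 and 15.5 ± 1.06% in controls. CCT5 made up 11.9 ± 0.161% after MG132, 13.4 ± 0.529% after reversine, 14.9 ± 0.519% after BafA1 and 15.9 ± 0.638% in controls. CCT6A varied little on the deposited scale, at 10.9 ± 0.258% after MG132, 11.7 ± 0.12% after reversine, 11.0 ± 0.128% after BafA1 and 11.3 ± 0.648% in controls. Shares were not computed after correction for GC content and length. With that correction over rows of at least 50 FPKM, CCT6A went from 282 to 184 FPKM in MG132 2 and from 286 to 188 in MG132 3. In controls it went from 249, 286 and 280 FPKM to 321, 308 and 308. CCT3 was the most abundant subunit in every control, whereas TCP1 was the most abundant in MG132 2 and MG132 3 and CCT7 in BafA1 2 and BafA1 3.

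**Figure D4:**
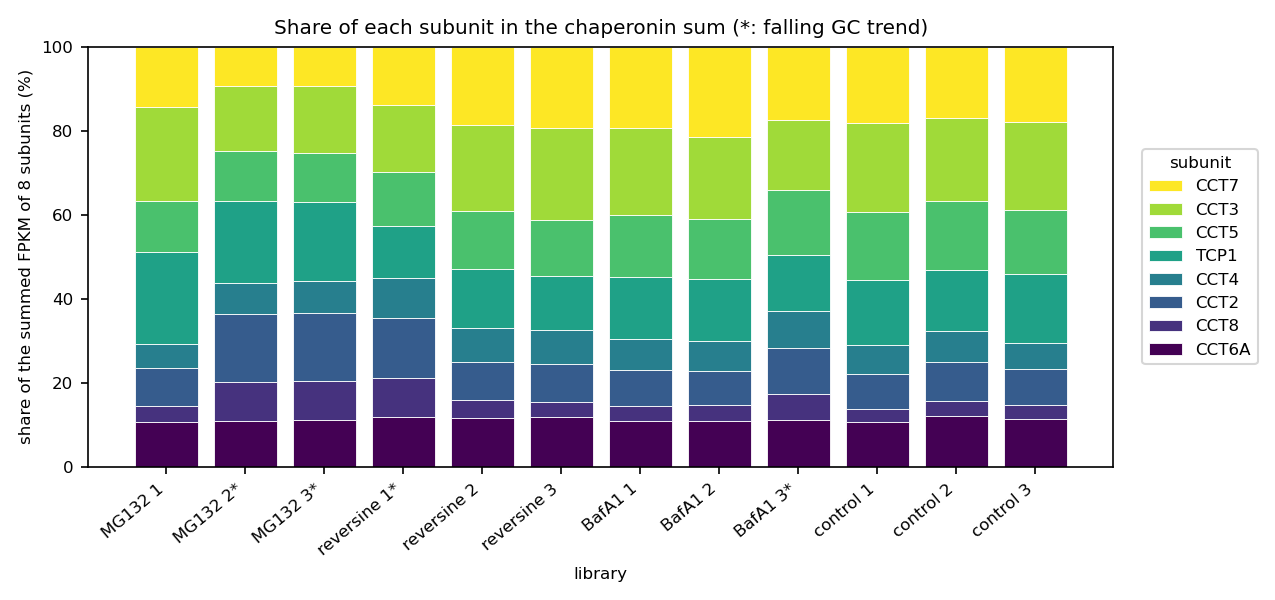
Share of each subunit in the summed FPKM of the 8 (vertical axis, percent) in each library; asterisks mark the GC-tilted libraries. On the deposited scale, without GC correction, CCT6A keeps a nearly constant band in every library. The CCT8 band is 9.37%, 9.16%, 9.26% and 6.14% in the 4 marked libraries and 3.10% to 4.37% in the others.

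The largest changes in proportion lay in particular libraries. The ratio of CCT7 to CCT8 FPKM was 3.73, 0.987 and 1.01 after MG132, 1.49, 4.26 and 5.18 after reversine, 5.37, 5.59 and 2.85 after BafA1 and 5.88, 4.54 and 5.16 in controls. The lowest 4 ratios were those of the 4 GC-tilted libraries. CCT7 has the highest transcript GC content of the 8 (50.9%) and CCT8 one of the lowest (41.5%). The standard deviation of the 8 log2 differences within a library was 0.77 and 0.75 in MG132 2 and MG132 3, 0.66 in reversine 1 and 0.37 in BafA1 3. It was 0.29 in MG132 1, 0.08 to 0.18 in the other reversine and BafA1 libraries, and 0.06 to 0.09 in controls, whose own values enter the control mean. Set against the mean of the other 2 controls, each control had 0.10 to 0.14. In reversine 2, reversine 3, BafA1 1 and BafA1 2 the 8 subunits thus lay within 0.23 to 0.55 log2 units of each other, with all 8 below their control means.

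A correction that removed each library's trend with GC content and transcript length lessened this spread in the 4 GC-tilted libraries but did not remove it. Fitted over the rows of at least 50 FPKM, it left a standard deviation within a library of 0.28, 0.56 and 0.53 after MG132, 0.51, 0.16 and 0.20 after reversine, 0.11, 0.17 and 0.32 after BafA1 and 0.04 to 0.08 in controls. The calls depended on the form of the correction. Over all tested rows of known GC content, TCP1 and CCT5 were called lower after reversine, beside 2.49% of those rows. The other 4 forms were added after results had been seen, and called 5 subunits lower after reversine over rows of at least 50 FPKM (beside 11.1% of those rows), 1 over rows of at least 20 FPKM (4.58%), 1 over rows of at least 5 FPKM (2.66%) and 0 when each library's mean was kept (0.0986%). These shares differ, so the counts cannot be compared directly with each other or with the 3 called without correction. None of the 5 forms called TCP1 higher after MG132, where its log2 difference was 0.0027 to 0.19 (limma adjusted p 0.515 to 0.996). No form called a subunit after BafA1. Whether base composition accounts for the split of CCT8 and CCT7 within groups was not tested.

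Across the 12 libraries, 24 of the 28 pairs of subunits had a Pearson correlation of log2(FPKM + 1) above 0, with a median of 0.63 and a range of −0.73 to 0.94. The lowest was that of CCT7 with CCT8 and the highest that of CCT2 with CCT8. On the corrected scale 22 pairs were above 0, with a median of 0.57. CCT7 with CCT8 was again lowest (−0.78), CCT5 with CCT6A was highest (0.91), CCT2 with CCT8 was 0.80, and CCT8 went below 0 with CCT4 (−0.21) and CCT6A (−0.46), against 0.75 and 0.43 on the deposited scale. CCT6A followed the mean of the other 7 most closely (r = 0.96), then TCP1 (0.89), CCT4 (0.84), CCT2 (0.73), CCT5 (0.71) and CCT3 (0.60), and CCT8 (0.37) and CCT7 (−0.09) the least. That order changed with the correction for GC content and length: fitted over rows of at least 50 FPKM it was CCT3 (0.90), TCP1 (0.85), CCT5 (0.81), CCT6A (0.76), CCT4 (0.66), CCT2 (0.50), CCT7 (0.34) and CCT8 (−0.16). These values describe 12 libraries in 4 groups that share depth and base composition effects, and carry no test. Among 24390 rows of at least 2 FPKM on average, the 5 genes most like the mean of the subunits were FKBP4 (r = 0.97), a cochaperone of HSP90, PSMC3 (0.96), an ATPase subunit of the proteasome, MCUR1 (0.95), a regulator of mitochondrial calcium uptake, API5 (0.94), an inhibitor of apoptosis, and PPP2CA (0.93), a catalytic subunit of protein phosphatase 2A. FKBP4 averaged 120 ± 13.3 FPKM after MG132, 73.1 ± 5.24 after reversine, 76.6 ± 8.33 after BafA1 and 105 ± 3.89 in controls. PSMC3 averaged 208 ± 11.8 FPKM after MG132, 106 ± 6.45 after reversine, 122 ± 10.8 after BafA1 and 157 ± 7.77 in controls.

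Most genes of a heat shock list rose after MG132. The list holds cytosolic chaperones and cochaperones, the mitochondrial chaperonin genes HSPD1 and HSPE1, and the transcription factors HSF1 and HSF2. Of its 18 genes 14 rose and 0 fell, beside 7.14% and 7.67% of all rows. The median log2 difference was 1.75, while the median of the 8 chaperonin subunits was 0.05 and that of all rows 0.04; the difference between the lists was not tested. HSPA1A, an inducible HSP70, averaged 1220 ± 206 FPKM after MG132 and 22.7 ± 7.54 FPKM in controls. HSPA1B, its near-identical copy, averaged 2008 ± 793 FPKM after MG132 and 70.6 ± 6.04 FPKM in controls, and the division of reads between these copies is uncertain. HSPA8, the constitutive HSP70, had 5119, 5061 and 5135 FPKM after MG132 and 1600, 1498 and 1874 FPKM in controls (log2 difference 1.63 ± 0.10, limma adjusted p = 2.11e-05). Of the 18, 13 rose without the 4 GC-tilted libraries, beside 3.13% of all rows. After reversine HSPA8 fell (−0.64 ± 0.10, limma adjusted p = 0.0111) and the other 17 were not called; HSPA8 was not called without the 4 GC-tilted libraries. After BafA1 none of the 18 was called; HSPA8 had the smallest limma adjusted p there, 0.478.

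Few cofactors of the chaperonin were called, and 1 call in a list this small is near the 7.14% of all rows called higher after MG132. Of 6 prefoldin subunits 1 rose after MG132, PFDN5, with 638 ± 94.8 FPKM after MG132 and 411 ± 37.9 FPKM in controls (limma adjusted p = 0.0142). Of 7 tubulin-folding cofactors 1 rose, TBCE, with 30.6 ± 8.88 FPKM after MG132 and 9.26 ± 1.89 FPKM in controls (limma adjusted p = 0.0158). None of the 3 measured phosducin-like cofactors was called. Neither PFDN5 nor TBCE was called without the 4 GC-tilted libraries. In the reversine and BafA1 comparisons with control no gene of these 3 lists was called. The smallest adjusted p was that of PFDN2, with 138 ± 24.5 FPKM after reversine, 135 ± 11.8 FPKM after BafA1 and 216 ± 33.9 FPKM in controls (limma adjusted p = 0.0735 for reversine and 0.204 for BafA1).

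Messages of many listed clients of the chaperonin fell after MG132. Of 17 actin, actin-related and tubulin genes 10 fell and 2 rose, beside 7.67% of all rows called lower and 7.14% higher. Near-identical members of these families can share reads, so the division between them is uncertain. TUBA1B, an alpha-tubulin, had 2146, 1357 and 1224 FPKM after MG132 and 6984, 6733 and 7830 FPKM in controls (−2.23 ± 0.28, limma adjusted p = 0.000915). The 2 that rose were TUBB4A, a beta-tubulin with 36.9 ± 10.6 FPKM after MG132 and 0.393 ± 0.207 FPKM in controls, and TUBA4A, an alpha-tubulin. TUBA4A averaged 449 ± 134 FPKM after MG132 and 63.0 ± 3.24 FPKM in controls. Of 19 WD40 and other clients 10 fell and 1, STRAP, rose, against the same shares of all rows. CDC20 averaged 46.7 ± 16.4 FPKM after MG132 and 333 ± 10.7 FPKM in controls (limma adjusted p = 0.000182), and the mitotic kinase PLK1 averaged 33.0 ± 11.7 FPKM after MG132 and 234 ± 18.8 FPKM in controls (limma adjusted p = 0.000172). WRAP53, a WD40 protein needed by telomerase, averaged 7.96 ± 1.00 FPKM after MG132 and 24.2 ± 1.94 FPKM in controls (limma adjusted p = 0.00179). Without the 4 GC-tilted libraries, 8 cytoskeletal genes and 7 other clients were called lower, beside 5.26% of all rows, and STRAP was not called higher.

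After reversine, 2 of the 19 clients and 3 of the 17 cytoskeletal genes fell, beside 1.29% of all rows called lower. CDC20 (−2.59 ± 0.27, limma adjusted p = 0.00159) and PLK1 (−2.46 ± 0.26, limma adjusted p = 0.00197) fell among the 19, and TUBA1B, TUBA1C and TUBB4B fell among the 17, where ACTA2, smooth muscle actin, rose to 87.8 ± 13.6 FPKM after reversine, against 35.5 ± 2.59 FPKM in controls; 0.801% of all rows were called higher. TUBA1B averaged 2035 ± 691 FPKM after reversine and 7182 ± 575 FPKM in controls. After BafA1 no client gene of either list was called, and the medians were −0.59 for the cytoskeletal genes and −0.19 for the other clients. Leaving out the 4 GC-tilted libraries, 7 cytoskeletal genes were called lower after reversine and 2 after BafA1, beside 1.42% and 0.0423% of all rows.

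**Figure D5:**
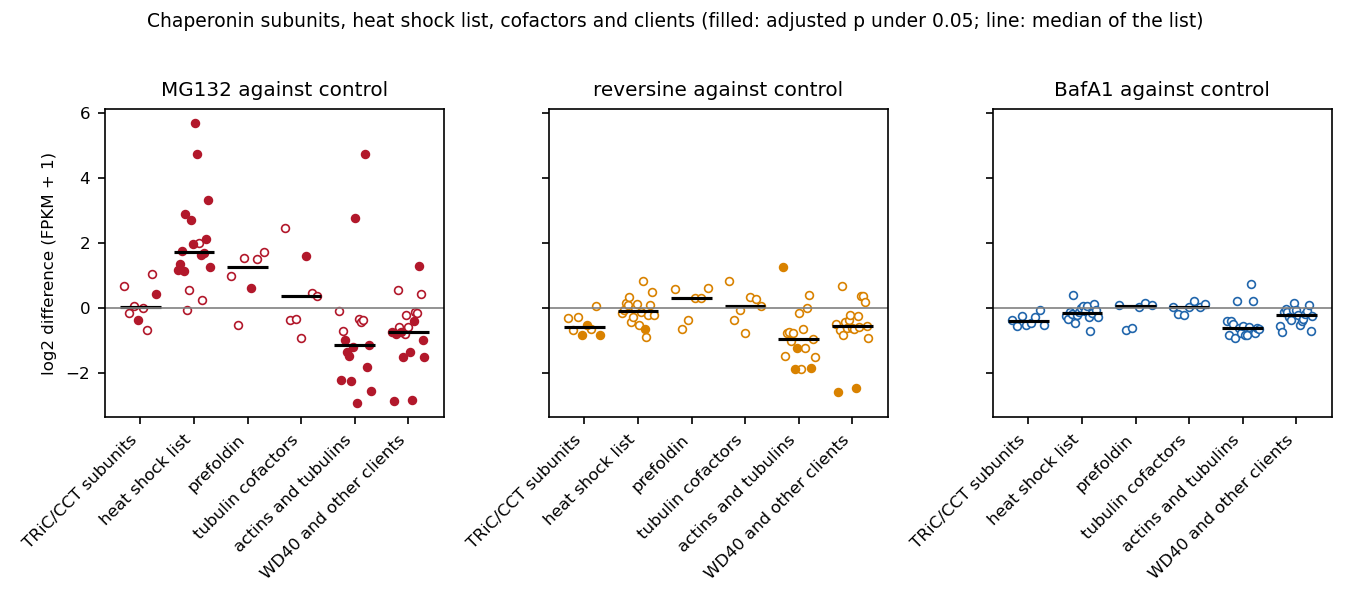
Log2 difference from control of chaperonin subunits, the heat shock list, cofactors and clients (vertical axis; 1 point per gene, black line the median, filled points a limma adjusted p under 0.05) after MG132, reversine and BafA1. After MG132 the heat shock list centers on 1.75 and the chaperonin subunits on 0.05, and after reversine the subunits center on −0.58.

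Rows of genes named after the subunits were low. Of 16 such rows, which include pseudogenes, 2 passed the filter, CCT6P1 and CCT6P3, and the highest value of any was 5.57 FPKM. CCT6B, the testis-expressed relative of CCT6A, measured 0.60 to 1.38 FPKM. More distant relatives help to assemble the BBSome of primary cilia, and 3 of them were tested. BBS12 rose after MG132, with 2.73 ± 0.314 FPKM after MG132 and 1.01 ± 0.172 FPKM in controls (limma adjusted p = 0.00553). MKKS and BBS10 were not called. The control level of BBS12 was near the filter of 1 FPKM, and 7.14% of all rows were called higher.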

How the data were processed

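RNA was sequenced from 12 hTERT-RPE1 libraries, 3 in each of 4 groups taken from the labels. The authors deposited 1 table of values per gene, which are FPKM as far as the values and tools show, since the header names no unit; per the submitters' processing notes Bowtie 1.0.0, RSEM 1.2.6 and hg19/GRCh37 were used. Strand handling and reads per library are not given in the sources used here, and overlapping genes could share reads. Differences were tested on log2(FPKM + 1) with limma 3.58.1 in R 4.3.3 (intensity trend, 1 fit of 4 groups), over the 30712 rows that reached 1 FPKM in 3 or more libraries. P-values were adjusted by Benjamini-Hochberg over all of these rows, and called means an adjusted p under 0.05. Fold changes of low genes are understated on this scale. The limma script was tested on simulated data. GC content and length came from GENCODE transcripts, for 82.5% of tested rows, and promoters from RefSeq GRCh38.p14, a build other than that of the table, matched by symbol. Besides the 8 subunits, the text names up to 3 called genes per list by smallest adjusted p, or the gene with the smallest adjusted p where none was called, and the 5 most alike genes. STRAP and TUBB4B, CCT6B, OTX2, CD68 and the other low or high markers were added after their values were seen. The members and lists were chosen with earlier results of these data known. Alternatives covered scaling, filters, pseudocount, groups in the fit, single libraries and GC correction.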

Additional observations from a re-analysis of the deposited data

How the results depend on the processing

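Depth per library is not given with these FPKM values, so no counting error is stated for any level. No paired analysis was possible because the replicate numbers follow accession order and pair no libraries. Each subunit symbol has 1 row, so adding rows of a symbol gives no other value. The pseudocount of 0.1 and the stricter filter of at least 5 FPKM left every count of called subunits within 1.5 times its reported value. The rise of TCP1 after MG132 was called in 5 of 17 alternatives, the fall of CCT5 after MG132 in 10, and after reversine the falls of TCP1, CCT5 and CCT6A in 13, 15 and 6; none of these 5 differences changed sign. BafA1 calls stayed at 0 in every alternative run. Of the 5 corrections for GC content and length, 4 (rows of at least 50, 20 and 5 FPKM, and the form that keeps each library's mean) were chosen after seeing the data.

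When 1 library was left out at a time, the number of subunits called ran over 0 to 5 for MG132 against control, 1 to 6 for MG132 against reversine and 1 to 6 for MG132 against BafA1, and 3 to 8 in the test over the 4 groups, each time highest without MG132 1. In the fit without MG132 1, 42.5%, 55.7% and 60.1% of all rows were called in these comparisons, in that order. The test over the 4 groups then called 41.9% of all rows. The median of the 8 ran over −0.0094 to 0.15 for MG132 against control, −0.48 to −0.36 for BafA1 against control and 0.41 to 0.63 for MG132 against reversine. Signs turned for CCT4 (−0.0060 to 0.23) in MG132 against control, CCT6A (−0.045 to 0.065) in MG132 against control, CCT8 (−0.25 to 0.26) in reversine against control, CCT8 (−0.32 to 0.089) in BafA1 against control, CCT7 (−0.26 to 0.12) in MG132 against reversine, CCT2 (−0.090 to 0.22) in reversine against BafA1, CCT3 (−0.28 to 0.076) in reversine against BafA1, CCT4 (−0.095 to 0.086) in reversine against BafA1 and CCT8 (−0.20 to 0.38) in reversine against BafA1.

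With no filter on low values, the number of subunits called was 1 for MG132 against control, and the share of all rows called there is not given. Under median-ratio scaling, the number of subunits called was 1 for MG132 against reversine, beside 1.37% of all rows called higher. The median log2 difference of the 8 subunits was −0.25 for MG132 against control, −0.49 for BafA1 against control, 0.22 for MG132 against reversine and 0.22 for MG132 against BafA1. In that setting the sign of the log2 difference turned for CCT4 (−0.22) and CCT6A (−0.28) in MG132 against control, CCT5 (−0.038) in MG132 against BafA1 and CCT4 (0.085) and CCT6A (0.029) in reversine against BafA1. Then the mean summed level was 2268 FPKM in MG132 libraries, 1783 FPKM in reversine libraries and 2638 FPKM in control libraries. Without the 4 GC-tilted libraries, MG132 1 was alone in its group, and its counts of called subunits are left out here. There the median log2 difference of the 8 subunits was −0.48 for BafA1 against control and 0.39 for MG132 against reversine. The sign of the log2 difference turned for CCT3 (0.13), CCT4 (−0.23) and CCT6A (−0.080) in MG132 against control, CCT8 (−0.25) in reversine against control, CCT7 (0.092) in MG132 against reversine and CCT3 (0.013), CCT4 (0.086) and CCT6A (0.033) in reversine against BafA1. In that setting the mean summed level was 2411 FPKM in MG132 libraries. After GC and length correction over the tested rows, the median log2 difference of the 8 subunits was −0.15 for MG132 against control, −0.47 for BafA1 against control, 0.35 for MG132 against reversine and 0.25 for MG132 against BafA1. Then the sign of the log2 difference turned for CCT4 (−0.0048) and CCT6A (−0.29) in MG132 against control and CCT4 (0.039) in reversine against BafA1. There the mean summed level was 2262 FPKM in MG132 libraries and 2561 FPKM in control libraries. With that correction over rows of at least 50 FPKM, the number of subunits called was 5 for reversine against control, beside 11.1% of those rows called lower. The median log2 difference of the 8 subunits was −0.20 for MG132 against control, 0.31 for MG132 against reversine and 0.14 for MG132 against BafA1. In that setting the sign of the log2 difference turned for CCT4 (−0.18) and CCT6A (−0.54) in MG132 against control, CCT8 (−0.094) in reversine against control, CCT5 (−0.073) and CCT6A (−0.054) in MG132 against BafA1 and CCT2 (−0.067) and CCT8 (−0.017) in reversine against BafA1. Then the mean summed level was 2196 FPKM in MG132 libraries and 1920 FPKM in BafA1 libraries. Over rows of at least 20 FPKM, the number of subunits called was 1 for reversine against control, beside 4.58% of those rows called lower. There the median log2 difference of the 8 subunits was −0.12 for MG132 against control, −0.30 for BafA1 against control, 0.31 for MG132 against reversine and 0.21 for MG132 against BafA1. The sign of the log2 difference turned for CCT4 (−0.038) and CCT6A (−0.24) in MG132 against control, CCT8 (0.046) in BafA1 against control and CCT2 (−0.0016) and CCT4 (0.017) in reversine against BafA1. In that setting the mean summed level was 2254 FPKM in MG132 libraries and 1898 FPKM in BafA1 libraries. Over rows of at least 5 FPKM, the number of subunits called was 1 for MG132 against control, reversine against control, MG132 against reversine and MG132 against BafA1. The shares of those rows called in the same direction were 11.9% and 2.66% lower against control, and 5% and 9.11% higher against reversine and BafA1. Then the median log2 difference of the 8 subunits was −0.15 for MG132 against control, 0.35 for MG132 against reversine and 0.29 for MG132 against BafA1. There the sign of the log2 difference turned for CCT6A (−0.34) in MG132 against control and CCT2 (−0.0079) and CCT4 (0.095) in reversine against BafA1. The mean summed level was 2210 FPKM in MG132 libraries, 1917 FPKM in BafA1 libraries and 2525 FPKM in control libraries. When the correction kept each library's mean, the number of subunits called was 0 for MG132 against control, reversine against control, MG132 against reversine, MG132 against BafA1 and the test over the 4 groups. The shares of rows called in the 4 comparisons were 8.6%, 0.316%, 3.52% and 9.82%, in that order, and the share in the test over the 4 groups is not given. In that setting the median log2 difference of the 8 subunits was −0.26 for MG132 against control, −0.12 for BafA1 against control, 0.020 for MG132 against reversine and −0.21 for MG132 against BafA1. Then the sign of the log2 difference turned for CCT4 (−0.11) and CCT6A (−0.40) in MG132 against control, CCT4 (0.022) in reversine against control, CCT4 (0.11) and CCT8 (0.23) in BafA1 against control, CCT4 (−0.13) and CCT6A (−0.034) in MG132 against reversine, CCT3 (−0.19), CCT4 (−0.22), CCT5 (−0.36) and CCT6A (−0.23) in MG132 against BafA1 and CCT2 (−0.076) in reversine against BafA1. There the mean summed level was 2017 FPKM in MG132 libraries, 1826 FPKM in reversine libraries and 2160 FPKM in BafA1 libraries. With only the compared groups in the fit, the number of subunits called was 1 for MG132 against control, MG132 against reversine and MG132 against BafA1 and 0 for reversine against control. The shares of all rows called in those fits are not given, so these counts have no background. Scaling and the form that keeps the mean also shift all rows: the median log2 difference over all rows was −0.24 for MG132 against reversine under median-ratio scaling, and −0.54 for MG132 against BafA1 when the mean was kept. The cause of these changes was not tested.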
